A study of Arabidopsis thaliana with 6 samples.

Results

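Cytochrome P450 enzymes are heme-containing oxygenases that plants use to build and modify sterols, hormones, waxes and defence compounds. Most are anchored in the endoplasmic reticulum, receive electrons from an NADPH-dependent P450 reductase and insert oxygen into a small molecule, although some, such as the sterol desaturases, introduce a double bond. The genes were measured here in whole *Arabidopsis thaliana* seedlings of the ecotype Col-0, and 6 of them are described: CYP712A1 (AT2G42250), CYP78A8 (AT1G01190), CYP710A1 (AT2G34500), CYP71B5 (AT3G53280), AT3G44970 and CYP96A4 (AT5G52320). They were chosen by measured values, because they were taken from the authors' deposited table of 274 probe sets that passed a filter on fold change, difference of means and p between the same genotypes. That table holds 7 P450 genes, and the seventh, CYP82C4, is not a member. Each of the 6 genes has 1 probe set in that table, tied to a single locus. The arrays hold 22746 probe sets, and those outside that table have no gene name here. Any further probe set of the 6 genes could therefore not be seen. RefSeq names 5 of them as P450 genes, and AT3G44970 is called one by the authors' description alone.

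The samples were 3 arrays of wild type and 3 arrays of the double mutant gapcp1gapcp2, all from whole seedlings aged 15 days that were raised together, with no other treatment given in the labels. The mutant is named for GAPCP1 and GAPCP2, which encode the plastidial glycolytic glyceraldehyde-3-phosphate dehydrogenase. The labels do not describe its alleles, and no probe set could be named for either gene, so the genotype labels were not checked against the targeted transcripts. Whole seedlings mix all organs, so fewer cells of a type and less RNA per cell cannot be told apart in these values. Median intensity per array lay between 110.7 and 117, and 3 arrays per group limit the precision.

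Of the 6 P450 genes, 3 were lower in gapcp1gapcp2 (CYP712A1, CYP78A8 and CYP710A1) and 3 were higher (CYP71B5, AT3G44970 and CYP96A4). The lower ones had mean intensities 17.7, 5.24 and 3.43 times lower in the mutant, and the higher ones 2.08, 2.25 and 2.78 times higher. For each of the 6, every array of one genotype lay above every array of the other. Over all probe sets, 16.6% were lower without overlap and 15.5% were higher without overlap. Because the genes were picked from this same contrast, these counts describe the choice, no test is given for the genes, and nothing is read from the comparison with all probe sets.

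**Figure D1:**
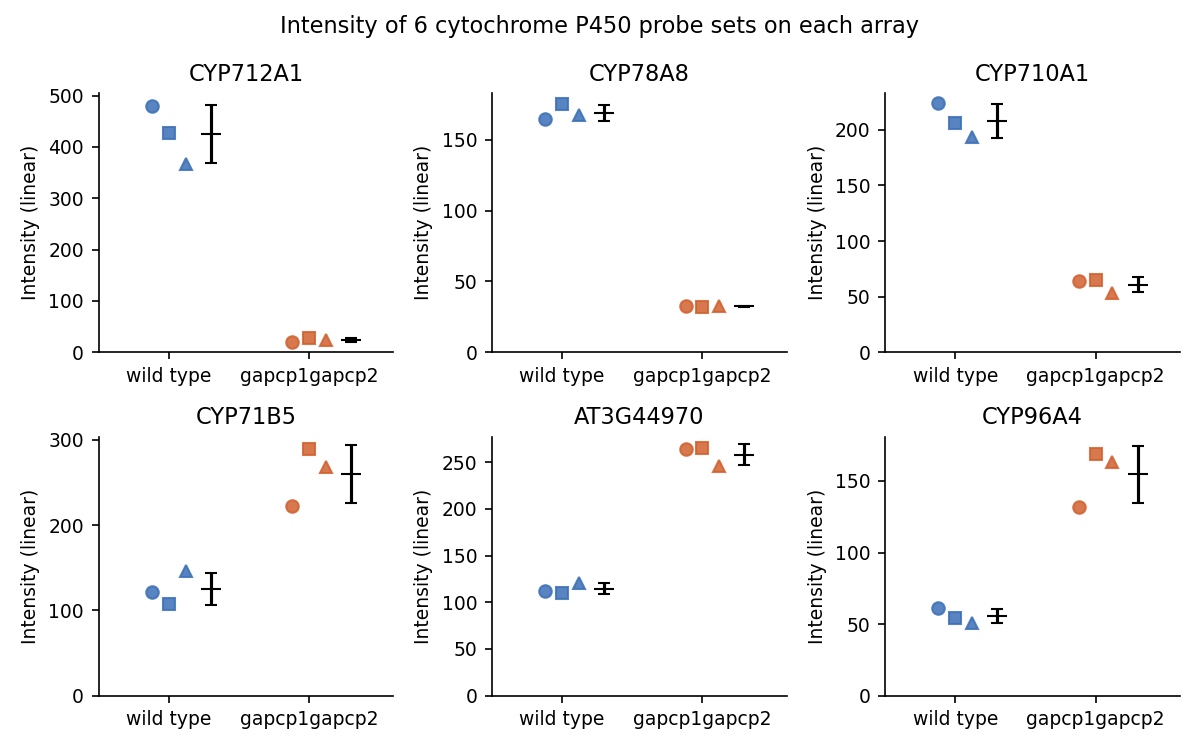
Intensity (linear scale, from 0) of the 6 P450 probe sets on each array, with circles, squares and triangles for replicates 1, 2 and 3 and black bars for the mean and SD (n = 3). The 3 genes of the upper row are lower on every gapcp1gapcp2 array than on every wild type array, and the 3 genes of the lower row are higher.

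The CYP712 family belongs to the large CYP71 clan of plant P450 enzymes. CYP712A1 had intensities of 479.8, 427 and 367 in wild type replicates 1, 2 and 3. In the mutant replicates they were 19.8, 27.6 and 24.4. The lowest wild type array was still 13.3 times the brightest mutant array. The means were 424 ± 56.6 in wild type and 23.9 ± 3.93 in the mutant (SD, n = 3 each), so that 5.64% of the wild type intensity was left. On the log2(intensity + 16) scale, where 16 is a constant added to steady dim values, the change was -3.46 ± 0.12 (SE). No other probe set among the 22746 had a lower change on that scale, and none did with 64 added, whereas 4 did with 1 added. All 3 mutant values lay under the 25th percentile of their own array, where the size of a fold is least certain.

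CYP78A8 is a member of the CYP78A family, whose best known member, the KLUH gene CYP78A5, promotes the growth of plant organs. Its wild type intensities of 165, 176 and 167 were close together, and its mutant intensities of 32.6, 31.7 and 32.6 were closer still. The means of 169 ± 5.69 and 32.3 ± 0.491 (SD, n = 3 each) gave a log2 change of -1.94 ± 0.06 (SE). This was the tightest of the 6 genes within genotypes, with a pooled SD of 0.033 on the log2 scale. The pooled SD of the 6 genes had a median of 0.129, against 0.132 over all probe sets. The genes were chosen partly on p, which depends on this spread, so nothing is read from that comparison. On 2 of the 3 mutant arrays the intensity lay under the array's 25th percentile. In the authors' deposited table the means of CYP78A8 are 153.8 and 29.7, both below the 3 arrays of their genotype. For the other 5 genes both means of that table lie within the range of the 3 arrays of their genotype. They still differ from the means used here, as in wild type for CYP712A1 (417.85 against 424.43).

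CYP710A1 encodes a sterol desaturase of the CYP710A family, which turns sitosterol into stigmasterol by adding a double bond to the sterol side chain. Its wild type arrays read 224, 206 and 194, and its mutant arrays 64.3, 64.7 and 52.9. The mutant arrays were lower throughout, and the nearest arrays of the genotypes were 2.99 times apart. The means were 208 ± 15.3 and 60.7 ± 6.69 (SD, n = 3 each), a log2 change of -1.55 ± 0.09 (SE). No mutant value of CYP710A1 was under the 25th percentile of its array. The adjacent gene in the genome, CYP710A2, encodes another sterol desaturase of the family and has no probe set that could be named.

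Of 10 root marker genes, 2 could be named, and both were lower on the same mutant arrays as these 3 genes. A marker could be named only if it had passed the authors' filter on this genotype contrast, so the other 8 have unknown values and the pair does not describe root markers in general. CASP1, which builds the Casparian strip of the endodermis, went from 753 ± 34.3 to 256 ± 21.0, and the vacuolar membrane channel gene TIP2;3 from 349 ± 12.6 to 107 ± 10.3 (SD, n = 3 each). The summed intensity of the pair ran from 1073 to 1123 in wild type and from 338 to 392 in the mutant. Of 5 leaf markers and of 7 guard cell, root cap and seed markers, 0 could be named. The part of cell composition in the P450 values was not tested.

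Among the 3 genes that were higher in the mutant, CYP71B5 belongs to the CYP71B subfamily, which also holds PAD3, the enzyme of the last steps of camalexin synthesis. Its intensities were 122, 108 and 146 in wild type and 223, 289 and 268 in the mutant. The genotypes were separate, but the brightest wild type array and the dimmest mutant array were only 1.53 times apart, the narrowest gap of the 6 genes. The means of 125 ± 19.3 and 259.98 ± 33.8 (SD, n = 3 each) gave a log2 change of 0.97 ± 0.14 (SE). Its spread within genotypes, a pooled SD of 0.188 on the log2 scale, was the widest of the 6.

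AT3G44970 has no gene name in RefSeq, and the authors describe it only as a member of the P450 family. It read 112, 110.1 and 121 on the wild type arrays and 264, 265 and 246 on the mutant arrays. Its spread was small in both genotypes, and the nearest arrays were 2.03 times apart. The means were 115 ± 5.85 and 258 ± 10.8 (SD, n = 3 each), with a log2 change of 1.07 ± 0.07 (SE).

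CYP96A4 belongs to the same subfamily as MAH1 (CYP96A15), an alkane hydroxylase of stem wax synthesis. It was dim in wild type, with intensities of 61.2, 54.6 and 51.1, each under the median of its array. The mutant arrays read 132, 169 and 163, each above that median. The means of 55.6 ± 5.16 and 155 ± 19.9 (SD, n = 3 each) gave a log2 change of 1.25 ± 0.11 (SE), the highest of the 6 genes. Mutant replicate 1 was lower than the other two mutant arrays, and without both arrays numbered 1 the log2 change was 1.40.

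The filter behind the authors' deposited table asked for a fold over 2, a difference of means over 100 and a p of at most 0.05. CYP71B5 lay just inside the fold limit, at 2.08 in the authors' deposited table. CYP96A4 lay just inside the difference limit there, at 104.1, but on the arrays used here its difference was 99.0. Probe sets outside the table have no gene name here, and those with both means above 0 were searched without the p limit. Of those past the fold limit, the one closest below the difference limit had a fold of 2.03 and a difference of 99.3 on these arrays. Of those past the difference limit, the one closest below the fold limit had a fold of 1.99 and a difference of 217. The other 4 genes had differences between 137 and 401 on these arrays.

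**Figure D2:**
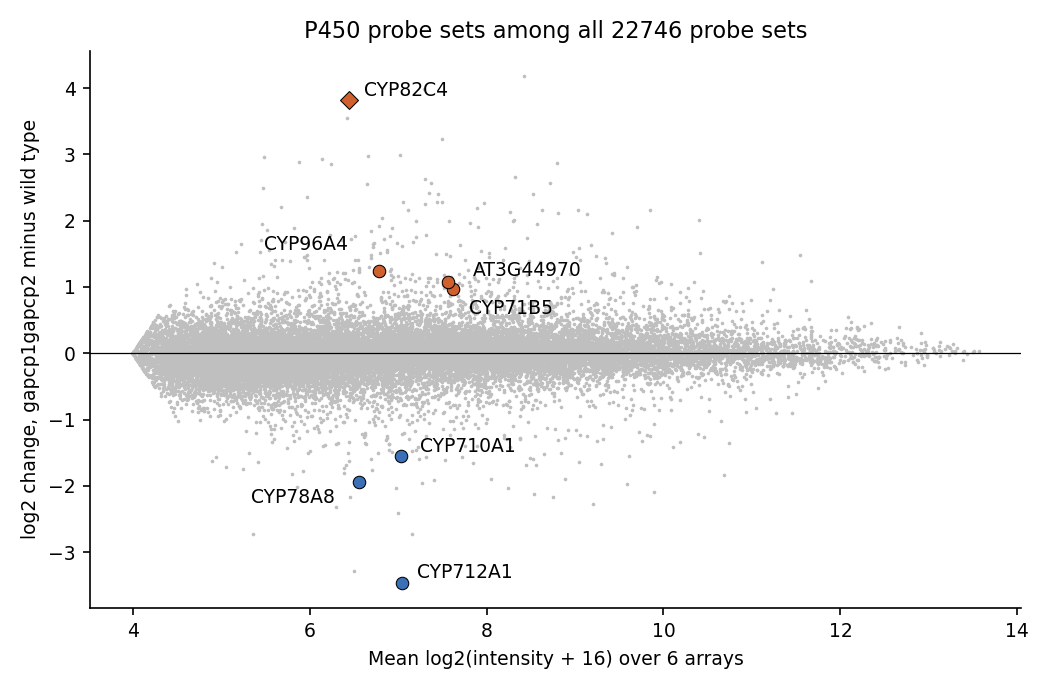
Log2 change between the genotypes (gapcp1gapcp2 minus wild type, log2(intensity + 16) scale) against the mean over 6 arrays on that scale, for all 22746 probe sets (grey dots), the 6 P450 genes (circles, blue lower and orange higher) and CYP82C4 (diamond). CYP712A1 has the lowest change of all probe sets, and CYP71B5, AT3G44970 and CYP96A4 lie near a change of 1.

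In the fit over all 22746 probe sets with limma, a linear model with moderated variances, 5.13% of probe sets were called lower and 5.86% higher at an adjusted p under 0.05. All 6 P450 genes were among the calls, 3 in each direction. Their choice from the same contrast leads to this, so these calls are not a test of the genes. On that log2 scale, 0.765% of all probe sets were at least 2-fold lower and 1.00% at least 2-fold higher. Of the P450 genes, 3 were past that limit downward and 2 upward, with CYP71B5 short of it. The median log2 change of the 6 was -0.29, between 3 negative and 3 positive values, and that of all probe sets was -0.02. The number of all calls was 2501. Without wild type replicate 1, 2 or 3 it was 1738, 1422 or 1864. Without gapcp1gapcp2 replicate 1, 2 or 3 it was 2347, 1190 or 1197. A fit on fewer arrays has less power, and the cause of the drops was not tested.

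The size of the log2 change depended on the constant added before the logarithm. For CYP712A1 it was -4.10 with 1 added and -2.47 with 64 added. For CYP78A8 these values were -2.35 and -1.28, and for CYP710A1 -1.77 and -1.13. The genes that were higher moved less, and CYP96A4 went from 1.45 to 0.87. With 64 added, CYP71B5 (0.78), AT3G44970 (0.85) and CYP96A4 all fell short of 2-fold. The order among the lower genes was the same with 1, 16 and 64 added, and so was the order among the higher ones. Leaving out 1 array at a time kept CYP712A1 between -3.56 and -3.37, CYP78A8 between -1.96 and -1.91, and CYP710A1 between -1.60 and -1.47. CYP71B5 ranged from 0.88 to 1.07, AT3G44970 from 1.05 to 1.11, and CYP96A4 from 1.19 to 1.35.

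**Figure D3:**
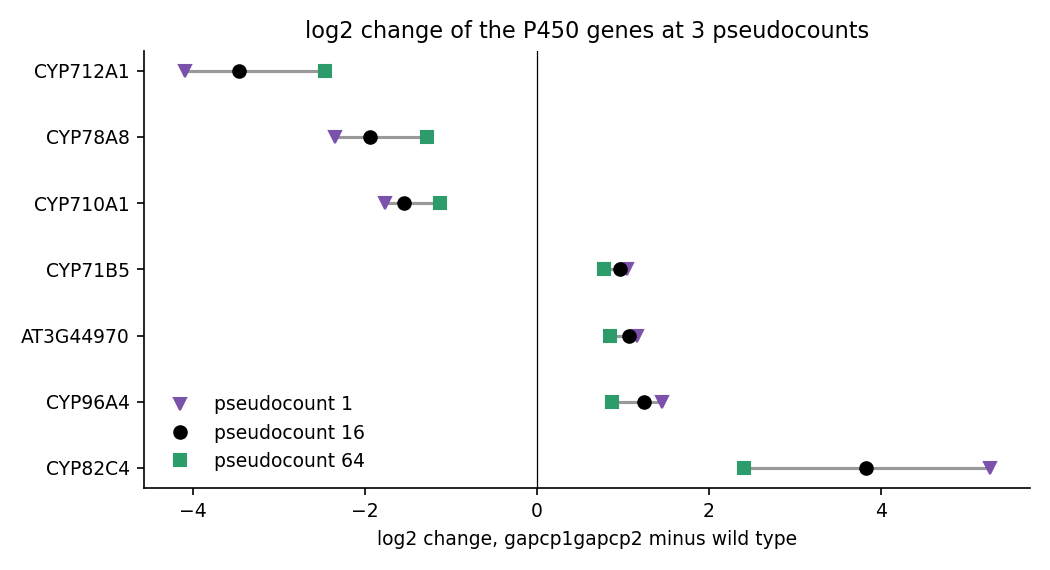
Log2 change between the genotypes (gapcp1gapcp2 minus wild type) of the 6 P450 genes and CYP82C4, with 1 (triangles), 16 (circles) or 64 (squares) added to the intensity before the logarithm. CYP712A1 and CYP82C4, each dim in 1 genotype, move most, and no gene changes sign.

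CYP82C4, a hydroxylase of the coumarin pathway that is known from iron-deficient roots, had the highest change of the 7 P450 genes that could be named. It went from 7.21 ± 0.766 to 317 ± 59.0 (SD, n = 3 each), with a log2 change of 3.83 ± 0.14 (SE), 2.41 with 64 added and 5.26 with 1 added. In wild type it was under the 25th percentile on 3 of 3 arrays, the reverse of CYP712A1, which was there on 3 of 3 mutant arrays.

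Within a genotype, the 6 genes did not share one order of the arrays. In wild type, replicate 1 was the brightest for CYP712A1, CYP710A1 and CYP96A4, and replicate 3 was the dimmest for the same 3 genes. For CYP71B5 and AT3G44970 replicate 3 was instead the brightest, and CYP71B5 stood 0.21 above its wild type mean there on the log2 scale. In the mutant, replicate 2 was the brightest for 5 of 6 genes, while 35.9% of all probe sets were brightest there. The exception was CYP78A8, whose replicates 1 and 3 were equal. Of the 5, CYP710A1 (64.3 against 64.7) and AT3G44970 (264 against 265) were nearly as bright in replicate 1 as in replicate 2. Mutant replicate 1 was the dimmest for CYP712A1, CYP71B5 and CYP96A4, with log2 deviations of -0.15, -0.20 and -0.20. That array was the dimmest mutant array for 51.4% of all probe sets and had the lowest median intensity.

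**Figure D4:**
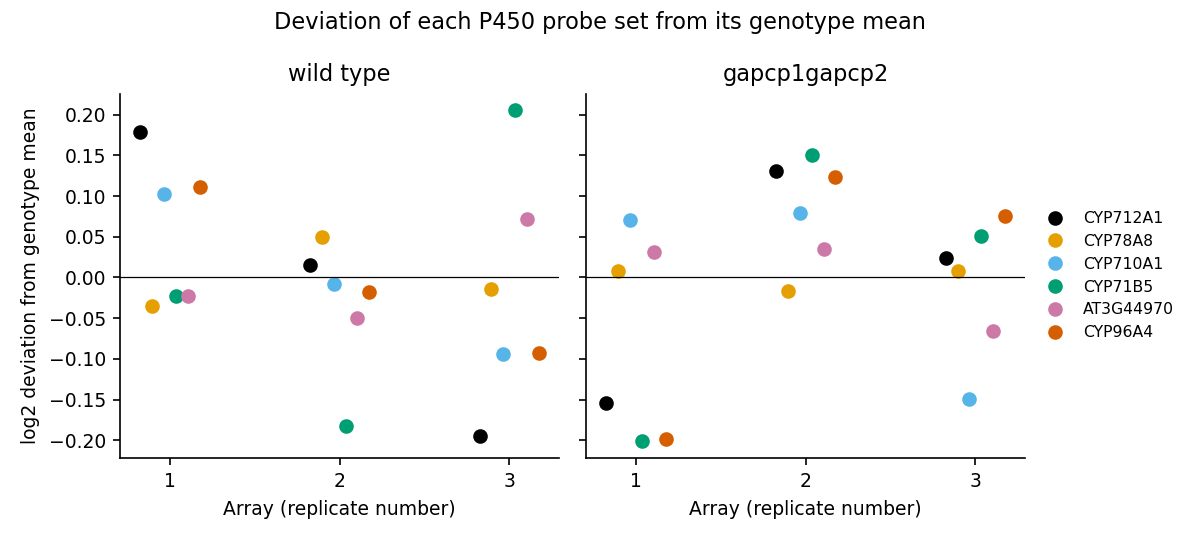
Deviation of each P450 probe set from its genotype mean on the log2(intensity + 16) scale, by array (replicate number), for wild type and gapcp1gapcp2. In the mutant, CYP712A1, CYP71B5 and CYP96A4 lie lowest in replicate 1, while CYP78A8 stays within 0.05 of 0 on all 6 arrays.

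For each P450 gene, the most similar profiles were sought among the other 255 single-locus probe sets of the authors' deposited table. The measure was the smallest Euclidean distance over the 6 arrays after subtracting each wild type mean on the log2 scale. The genotype change stays in this distance, so a near match is mainly a gene with a change of similar size. CYP712A1 was nearest to AT1G52820, described as a putative oxygenase dependent on 2-oxoglutarate (distance 0.43), which went from 266 ± 10.7 to 13.0 ± 0.659 (SD, n = 3 each). The second nearest, AT3G06390, was much farther away (1.84). CYP78A8 lay next to AGP22, an arabinogalactan protein gene (0.086), and MEE3, a myb family gene (0.18). CYP710A1 lay next to XTH15, a gene for an enzyme that remodels xyloglucan in the cell wall (0.15), and to the heat shock factor gene HSFA7A (0.19).

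Among the higher genes, AT3G44970 had the closest match of the 6, AT3G21950 of the carboxyl methyltransferase family (0.054), which went from 137 ± 3.95 to 308 ± 12.8 (SD, n = 3 each). Its second match was the chlorophyllase gene CLH1 (0.089), which the authors describe as induced by coronatine. CYP71B5 was nearest to AT1G74450 (0.198) and to XTH19, another xyloglucan enzyme gene (0.20). CYP96A4 was nearest to the lectin family gene AT5G03350 (0.16) and to UMAMIT14, of a transporter family (0.18). The log2 changes of near matches were alike, such as 1.07 for AT3G44970 and 1.08 for AT3G21950. These matches come from probe sets that were all selected on the same genotype contrast. They are given as a description, and no shared regulation is read from them.

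The 5 members with a RefSeq name belong to 5 different subfamilies. RefSeq names 253 P450 loci, pseudogenes included, by a CYP symbol or synonym or by a synonym that starts with cytochrome P450. The CYP712A subfamily has 2 named loci, CYP78A 6, CYP710A 4, CYP96A 14 and CYP71B 36, and of each subfamily only the gene described here is in the authors' deposited table. Their genomic neighbours were also looked up, as the 2 nearest protein-coding genes on each side. Of these 24 genes, 2 were P450 genes by name, CYP710A2 beside CYP710A1 and CYP71B30P beside CYP71B5, and 0 were in the authors' deposited table. That table holds 274 of the 22746 probe sets, so nothing is read from these counts of neighbours and subfamily members. Values of the genes outside it are unknown here, and no absence of change is stated for them. CYP96A4 lies beside LTI78 and LTI65, genes known for induction by cold and drought.

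Of the pathways around these enzymes few genes could be named. The lists, 11 in number, covered P450 redox partners, sterol, brassinosteroid, wax, cutin and suberin, triterpene, indolic, hormone and phenylpropanoid enzymes, the CYP78A family and heme metabolism. They hold 125 entries, of which 3 were in the authors' deposited table: CYP710A1 of 25 sterol genes, CYP78A8 of 6 CYP78A genes and CYP82C4 of 9 indolic and coumarin P450 genes. The 14 wax genes, with MAH1 among them, the 11 redox partners and the 6 heme genes had 0 in it. Values of the unnamed entries are unknown here, and no absence of change is stated for them.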

How the data were processed

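Total RNA of whole seedlings was hybridised as biotin-labelled cRNA to 6 one-colour Affymetrix arrays, and groups and replicate numbers were read from the sample titles. The description fields, which speak of embryos, were not used. The authors deposited linear intensity values, 1 per probe set for each array. GCOS is named in the submitters' processing notes; no version or scaling is stated there. The authors' deposited comparison table gives group mean intensity, a signed fold change score, its bounds and an unadjusted p-value. Its filter limits stand in the header of a second deposited file with the same 274 probe sets and means equal within 0.006.

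Values below 0 (1.85%, all arrays) were set to 0, log2(intensity + 16) was taken without further normalisation, and limma 3.58.1 (R 4.3.3, lmFit and eBayes, two-sided, Benjamini-Hochberg over 22746 probe sets) was fitted on all 6 arrays without a block. The limma fit alone was tested on simulated data, with changes placed only in probe sets at or above the median wild type level. P-values set each change against the spread between arrays within a genotype, moderated over all probe sets, and cover only these 3 and 3 samples. Names came from the authors' deposited table and RefSeq (TAIR10.1), and 124 of 125 pathway list entries matched a RefSeq name. The root marker RHS2 was left out because RefSeq gave its name no clear locus. Members, lists and rules were chosen with earlier results of these data known. Genes named were the members, the other P450 and list genes in the table and the 2 nearest profiles per member. Planned protein and promoter comparisons were not run, as no sequences were used here. Alternatives were other normalisations, dim filters, moderation, pseudocounts, array weights, a replicate block and fewer arrays. Python 3.11.15, numpy 2.4.6, pandas 2.3.3 and matplotlib 3.10.9 were used.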

Additional observations from a re-analysis of the deposited data

How the results depend on the processing

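Of 93 alternative log2 changes of the 6 P450 genes, 81 moved by less than 1 SD between replicates, 12 moved by more, and 0 reversed. Those 12 came from the pseudocounts and from leaving out both arrays numbered 1. With a pseudocount of 1 the values were -4.10 (CYP712A1), -2.35 (CYP78A8), -1.77 (CYP710A1), 1.17 (AT3G44970) and 1.45 (CYP96A4). With 64 they were -2.47, -1.28 and -1.13 for the lower genes and 0.78 (CYP71B5), 0.85 (AT3G44970) and 0.87 (CYP96A4) for the higher ones, so that 0 higher genes were past 2-fold. Without both arrays numbered 1, CYP96A4 was at 1.40. The count of higher genes past 2-fold was 2 to 3 when 1 array was left out. Leaving out the dimmest 60% of probe sets removed 3 of the genes (CYP78A8, CYP710A1 and CYP96A4), which are untested there. Dim intensity limits the folds of CYP712A1 and CYP78A8.

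The number of called probe sets, 2501 (1334 higher, 1167 lower), was 3779 (2042 higher) with array weights, 1504 (871 higher, 633 lower) without both arrays numbered 1, and 390 (222 higher, 168 lower) with a 2-fold minimum, which lowers it by construction. With each array left out in turn, the total ranged from 1190 to 2347, the higher calls from 620 to 1362 and the lower calls from 560 to 985. The cause of the change with array weights was not tested. The replicate block gave 1687 calls (910 higher, 777 lower) and left the log2 changes of the P450 genes as they were. Deviations of same-numbered arrays from their group means correlated at 0.234, 0.0186 and 0.0174. The labels name no pairing, so none was assumed. Numbers 2 and 3 were also under 0.1, a limit chosen here without a test. Across numbers, wild type replicate 3 and mutant replicate 2 correlated at 0.169, and wild type replicate 2 and mutant replicate 3 at 0.136. These values are above 0.1 too, but a fit with that pairing was not run. Same-numbered arrays were each other's best partner for number 1 and not for numbers 2 and 3.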
